A study of Homo sapiens with 8 samples.

Results

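Metallothioneins and the zinc response of colorectal cancer (CRC) cells were followed through 8 genes, taken by name from the 25192 gene symbols of the series. The set holds 6 metallothionein genes (MT1E, MT1F, MT1G, MT1M, MT1X and MT2A), the transcription factor gene MTF1 and the zinc exporter gene SLC30A1. Messenger RNA was sequenced from HT29 and SW480, established human CRC lines, both of which carry truncated APC. Each line was transfected for 36 h with control siRNA (siCon) or with an siRNA against PRDX2 (siPrdx2), the gene of the peroxide-reducing enzyme peroxiredoxin II (PrxII), with 2 libraries in each of the 4 groups. HT29 cells grew in McCoy's 5A medium and SW480 cells in RPMI1840, each with fetal bovine serum, and the labels name no added metal or oxidant. Nothing in the sources used here says whether duplicates were separate transfections, so that p-values measure only the spread between these libraries, which may be technical. All cells of a culture were sequenced together, and fewer cells with a message cannot be told apart from less of it in each cell.

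Metallothioneins are small cysteine-rich proteins that bind zinc and copper ions and react readily with oxidants. MTF1 senses free zinc, enters the nucleus and binds metal response elements, short DNA motifs near the start sites of the metallothionein genes and of SLC30A1. SLC30A1 (ZnT1) exports zinc across the plasma membrane, so that the metallothioneins and SLC30A1 form the storage and the export arm of the same response. Oxidants can release zinc from metallothionein, and for that reason the genes are also read as reporters of oxidative stress.

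The 6 metallothionein genes lie within a cluster on chromosome 16 of GRCh37, the assembly also named hg19, to which the files refer. On the plus strand, MT2A spans 56642496 to 56643409, MT1E 56659387 to 56661024, MT1M 56666571 to 56667893, MT1F 56691643 to 56694610 and MT1X 56716382 to 56718108. MT1G spans 56700642 to 56701977 on the minus strand. MTF1 (38275246 to 38325264) and SLC30A1 (211744910 to 211752503) lie on the minus strand of chromosome 1. Because the metallothionein transcripts resemble each other, reads can fit several of them. Of all stretches of 50 bases in the annotated transcripts, the share also found in another metallothionein gene was 18.2% for MT1M, 16.4% for MT1G, 7.1% for MT1E, 4.2% for MT2A, 3.7% for MT1X and 1.2% for MT1F. The values of MT1M and MT1G are therefore the least certain, and the metallothionein sum, the counts of all 15 metallothionein rows added together, is given beside the single genes.

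The 250 bases before the start site of 3 members are printed 5′ to 3′ because the CPM of these genes lay below the controls in HT29 and above them in SW480. That pattern was found in 5.58% of the 14772 genes tested between lines, and none of the 3 passed that test. In HT29, MT1X had 9 and 8 counts and then 7 and 7. Whether the letters bear on the values was not tested. The windows are RefSeq promoters of build GRCh38.p14, in which MT2A lies at chr16:56608334-56608583 (plus strand), MT1X at chr16:56682220-56682469 (plus strand) and SLC30A1 at chr1:211579162-211579411 (minus strand). Capitals mark the core of the metal response element (TGCACNC or TGCGCNC) read on either strand.
MT2A: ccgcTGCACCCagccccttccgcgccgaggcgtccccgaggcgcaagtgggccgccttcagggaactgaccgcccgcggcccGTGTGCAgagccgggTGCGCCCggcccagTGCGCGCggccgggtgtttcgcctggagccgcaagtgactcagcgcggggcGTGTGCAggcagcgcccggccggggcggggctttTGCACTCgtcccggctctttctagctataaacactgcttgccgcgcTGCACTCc
MT1X: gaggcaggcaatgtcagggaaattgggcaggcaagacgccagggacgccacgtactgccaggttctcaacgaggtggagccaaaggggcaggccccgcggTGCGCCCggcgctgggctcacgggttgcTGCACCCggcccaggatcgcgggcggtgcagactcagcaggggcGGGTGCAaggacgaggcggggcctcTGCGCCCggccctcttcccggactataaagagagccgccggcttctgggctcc
SLC30A1: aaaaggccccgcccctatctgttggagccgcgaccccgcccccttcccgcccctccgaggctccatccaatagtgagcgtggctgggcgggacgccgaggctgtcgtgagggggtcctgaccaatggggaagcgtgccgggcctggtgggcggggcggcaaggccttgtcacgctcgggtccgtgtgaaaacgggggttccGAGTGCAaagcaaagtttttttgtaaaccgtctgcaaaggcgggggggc

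Windows were found for 4 of the 8 members, MT2A, MT1X, SLC30A1 and MTF1. The MT2A window held 7 metal response element cores, the MT1X window 4, the SLC30A1 window 1 and the MTF1 window 0. Among 34788 promoter windows of the same length, 24.8% held at least 1 core, 1.58% held 3 or more and 0.121% held 5 or more. The core of the antioxidant response element (TGACNNNGC, either strand), the site of the oxidant-responsive factor NRF2, occurred at 1 place in the MT2A, MT1X and SLC30A1 windows and in 10.9% of all windows. In MT2A it lay 104 to 96 bases before the start site and shared its letters with an AP-1 core (TGANTCA), which 6.59% of windows held. These matches describe letters, not bound sites, and the map of motif letters shows where they lie.

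The libraries held between 8857442 and 10164137 expected counts, so that 3 counts correspond to 0.295 to 0.339 CPM (counts scaled to the size of the library). Limits of this kind cover counting error only. The colon epithelial markers EPCAM, CDH1, KRT8, KRT18, CDX2 and VIL1 were all present in both lines, EPCAM at 727 to 786 TPM (a unit scaled for transcript length) in HT29 and 340.2 to 412 TPM in SW480. Of the markers of other cell types, the blood cell gene PTPRC was at 0 in all 8 libraries, the endothelial gene PECAM1 reached 0.40 TPM, and the fibroblast gene COL1A1 lay at 1.04 to 1.94 TPM in HT29 and 7.35 to 9.33 TPM in SW480. The SW480 control duplicates stood apart from each other. Their counts differed by a chi-square of 11.0 per degree of freedom, against 2.1 between the SW480 siPrdx2 duplicates and 1.41 and 1.7 in HT29. Their difference over genes followed transcript GC content (Spearman's rho -0.72 across genes, replicate 1 minus replicate 2), against -0.13 between the siPrdx2 duplicates of SW480. The members' changes in SW480 are therefore given with and without each control library. The knockdown was present in both lines. PRDX2 went from 148 and 154 CPM to 82.4 and 83.2 CPM in HT29 (log2 fold change -0.87, adjusted p = 1.15e-09, edgeR's quasi-likelihood test) and from 209 and 246 CPM to 69.5 and 70.7 CPM in SW480 (-1.70, adjusted p = 6.18e-04).

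Levels between genes were compared in TPM, which rests on the effective transcript lengths in the deposited values. These lay a median of 51.7 to 59.3 bases below the transcript lengths, although the paper describes longer inserts for the HT29 libraries. The order of short metallothionein messages and longer messages depends on these lengths in both lines. Other effective lengths were not tested. In the HT29 control libraries MT1E was the highest member at 188 ± 2.75 TPM (SD, n = 2), followed by MT2A at 136 ± 1.90 TPM. SLC30A1 followed at 34.6 ± 3.82 TPM, MTF1 at 13.1 ± 0.80 TPM, MT1F at 7.69 ± 0.32 TPM, MT1X at 5.36 ± 0.39 TPM and MT1G at 4.19 ± 1.32 TPM. The libraries of MT1X (5.63 and 5.08 TPM) and of MT1G (5.12 and 3.25 TPM) overlapped, so that these neighbours in the order did not differ beyond their spread. Every other neighbouring pair was apart in these TPM values.

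In the SW480 control libraries the order was another. MT2A led at 547 ± 105 TPM (SD, n = 2), then came MT1E at 172 ± 21.8 TPM, MT1F at 40.8 ± 0.66 TPM, MT1X at 33.2 ± 3.86 TPM, SLC30A1 at 24.7 ± 0.34 TPM and MTF1 at 10.3 ± 1.09 TPM. No neighbouring pair among these overlapped between libraries. MT1G had no count in any SW480 library, and MT1M had none in any of the 8 libraries, which allows up to 3 counts, or 0.295 to 0.339 CPM, in each. The plot of levels shows all 8 genes in every library.

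**Figure D1:**
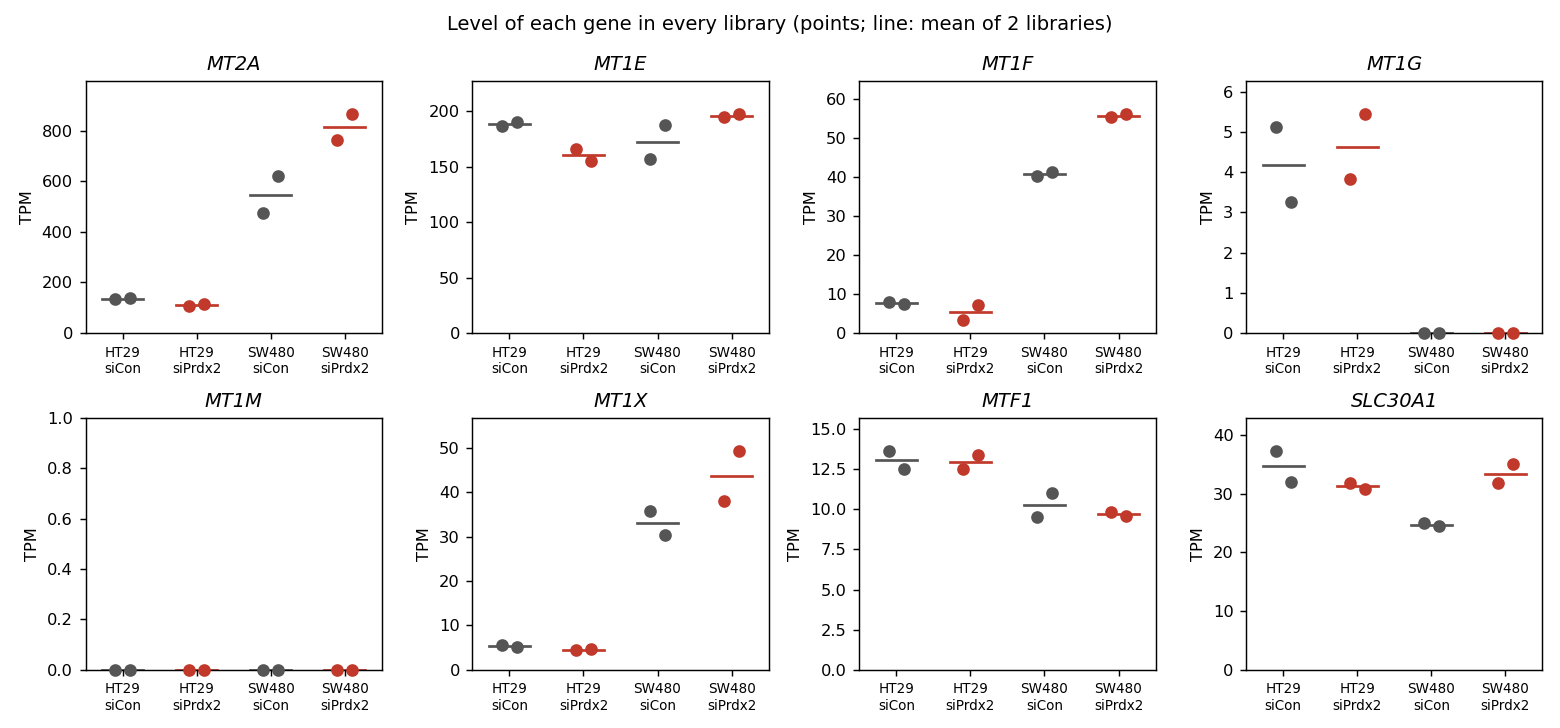
TPM of each of the 8 genes (1 panel per gene, vertical axis from 0) in every library; points are libraries, horizontal lines the mean of 2. MT2A runs from 109 to 137 TPM in HT29 and from 472 to 866 TPM in SW480, and MT1M is at 0 throughout.

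Under control siRNA, MT2A, MT1F and MT1X were higher in SW480 than in HT29, and MTF1 and SLC30A1 were lower. In counts scaled within the fit of the 4 control libraries, the log2 difference (SW480 minus HT29) was 1.87 (SE 0.16) for MT2A, 2.26 (SE 0.26) for MT1F and 2.47 (SE 0.30) for MT1X. All 3 passed edgeR's quasi-likelihood test, with adjusted p-values of 1.54e-05, 7.51e-05 and 1.21e-04. SLC30A1 was lower by a log2 difference of -0.61 (SE 0.14, adjusted p = 0.00469), and so was MTF1, the sensor, at -0.48 (SE 0.14, adjusted p = 0.0130). MT1E did not pass, at -0.26 with a 95% interval of -0.58 to 0.06 (adjusted p = 0.133). Of the 6 members tested, 5 were called, where 67.5% of all genes tested were called. A line-to-line call is thus common in these data. Cell line cannot be told apart from the culture medium or from the time of sequencing or deposit. MT1G, too low for the test, had 8 and 5 counts in the HT29 control libraries and 0 in the SW480 control libraries. Without HT29 siCon replicate 1 and 2 in turn, SLC30A1 was at -0.53 and -0.75, and MTF1 at -0.45 and -0.57. MTF1 lost its call with limma on log2(TPM + 1) (-0.32, adjusted p = 0.0905), where 65.8% of all genes were called. MT1E was called lower with a correction for transcript GC content (-0.30, adjusted p = 0.00969) and without SW480 siCon replicate 2 (-0.35, adjusted p = 0.00282), where 79.4% and 77.4% of all genes were called.

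The metallothionein pool thus had another makeup in each line. In HT29 the 15 metallothionein rows summed to 345 and 348 TPM in the control libraries and to 289 and 291 TPM in the siPrdx2 libraries. MT1E made up 53.4% to 57.3% of that sum and MT2A 37.5% to 39.3% over the 4 HT29 libraries. In SW480 the rows summed to 748 and 927 TPM in the control libraries and to 1090 and 1210 TPM in the siPrdx2 libraries. MT2A made up 63.2% and 67.0% of the pool in the SW480 control libraries and 70.1% and 71.3% in the siPrdx2 libraries, while MT1E made up 21.0% and 20.3%, and then 17.8% and 16.3%. The ratio of MT2A to MT1E in TPM lay between 0.66 and 0.73 in HT29, with control and siPrdx2 libraries overlapping. In SW480 it was 3.01 and 3.31 under control siRNA and 3.93 and 4.38 under PRDX2 siRNA, without overlap. Shares of a pool depend on each other, and no test was run on them. The stacked plot of the pool shows the larger sum of SW480 and its larger MT2A part.

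**Figure D2:**
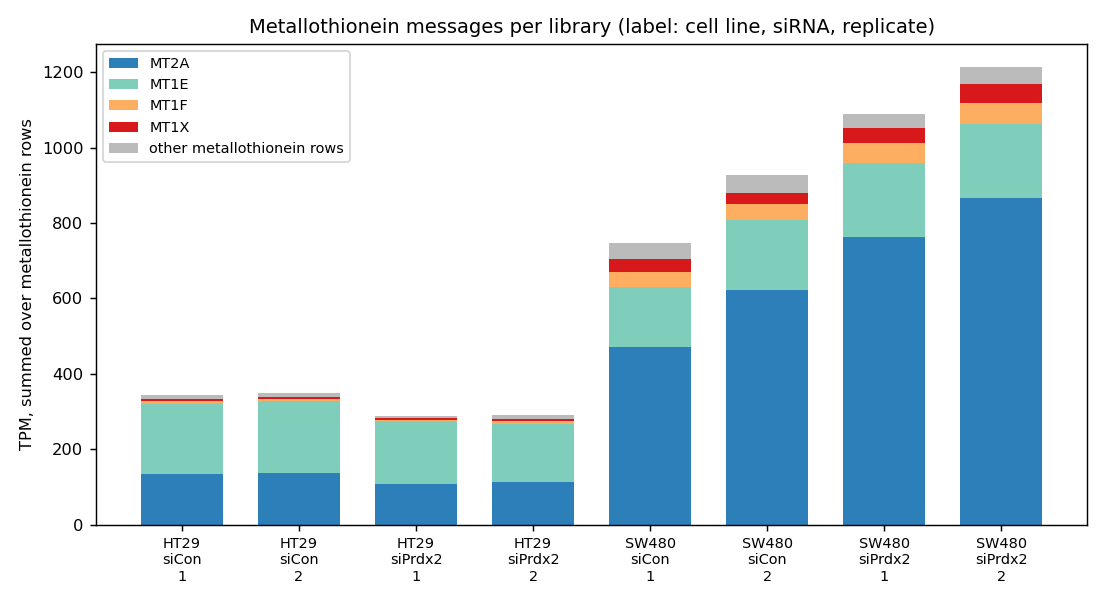
Metallothionein messages in each of the 8 libraries (vertical axis: TPM summed over 15 metallothionein rows, from 0; colours: MT2A, MT1E, MT1F, MT1X and the other rows). The sum runs from 289 to 348 TPM in HT29 and from 748 to 1210 TPM in SW480.

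In HT29 cells PrxII depletion was accompanied by lower messages of the main metallothioneins. MT2A, which is expressed in most human cell types, had 224 and 225 expected counts in the control libraries (23.0 and 23.5 CPM) and 182 and 177 in the siPrdx2 libraries (17.7 and 18.6 CPM). MT1E had 385 and 387 counts (39.5 and 40.4 CPM) and then 344 and 301 (33.5 and 31.7 CPM). For both genes each siPrdx2 library lay below each control library. The log2 fold change was -0.35 (SE 0.10, 95% interval -0.56 to -0.14) for MT2A and -0.29 (SE 0.07, interval -0.45 to -0.14) for MT1E. Both passed edgeR's quasi-likelihood test, with adjusted p-values of 0.0198 and 0.0107.

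The rarer metallothioneins of HT29 cells gave little to test. MT1F had 14 and 13 counts in the control libraries and 6 and 12 in the siPrdx2 libraries, a log2 fold change of -0.61 whose 95% interval ran from -1.56 to 0.34 (adjusted p = 0.400). It moved to -0.14 without siPrdx2 replicate 1 and to -1.24 without siPrdx2 replicate 2. Its libraries did not overlap, but the siPrdx2 duplicates (0.585 and 1.26 CPM) were farther from each other than the higher of them was from the controls (1.44 and 1.36 CPM). MT1X had 9 and 8 counts and then 7 and 7, and MT1G had 8 and 5 and then 6 and 8, so that both stayed under the minimum of 10 counts in 2 libraries and were not tested. The groups of MT1G overlapped and those of MT1X did not.

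The sensor and the exporter did not pass the test in HT29. MTF1 had 494 and 446 counts in the control libraries and 455 and 454 in the siPrdx2 libraries, with overlap and a log2 fold change of -0.08 (95% interval -0.23 to 0.07, adjusted p = 0.487). SLC30A1 had 335 and 282 counts (34.4 and 29.4 CPM) and then 287 and 258 (28.0 and 27.1 CPM), without overlap in CPM. Its log2 fold change was -0.21 (SE 0.09, interval -0.40 to -0.02) with an adjusted p of 0.121.

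Of the 5 members tested in HT29, 2 were called, both lower, where 17.6% of all 12961 genes tested were called and 9.82% were called lower. All 5 fold changes were below 0, with a median of -0.29 against 0 for all genes. In 4 of the 5 both siPrdx2 libraries lay below both control libraries, which 28.7% of all genes tested did. The metallothionein sum went from 66.8 and 67.8 CPM to 53.8 and 54.1 CPM, a log2 fold change of -0.32 (SE 0.06, interval -0.44 to -0.20, adjusted p = 8.58e-04). The calls of MT2A and MT1E were lost with DESeq2 (adjusted p = 0.266 and 0.203) and when all 8 libraries shared 1 estimate of the spread (0.387 and 0.276). Calls over all genes fell under these choices too, from 17.6% to 6.72% and 1.25%. MT2A was also lost without siCon replicate 2 (adjusted p = 0.0690) or siPrdx2 replicate 1 (0.113), MT1E without siPrdx2 replicate 2 (0.0749), while SLC30A1 was at -0.32 without siCon replicate 2 (adjusted p = 0.0227) and at -0.09 without siCon replicate 1 (adjusted p = 0.657). SLC30A1 was also called with the GC correction and replicate block together (-0.23, adjusted p = 0.0460), where 23.5% of all genes were called.

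In SW480 cells no member passed the test across all genes. The values of MT2A, MT1F and MT1X lay higher after PrxII depletion, those of MT1E overlapped, and MT1G and MT1M had no counts. MT2A had 673 and 979 expected counts in the control libraries (77.8 and 105 CPM) and 1173 and 1352 in the siPrdx2 libraries (121 and 137 CPM). Each siPrdx2 library lay above each control library, although the control duplicates were farther apart than the siPrdx2 duplicates. The log2 fold change of MT2A was 0.50 (SE 0.15, 95% interval 0.16 to 0.83) with an adjusted p of 0.0990. MT1F had 61 and 69 counts and then 90 and 93 (7.05 and 7.37 against 9.25 and 9.40 CPM), and MT1X had 49 and 46 and then 56 and 74 (5.66 and 4.91 against 5.76 and 7.48 CPM). Neither overlapped between groups, though for MT1X siCon replicate 1 and siPrdx2 replicate 1 were nearly equal. Their log2 fold changes of 0.37 (interval -0.05 to 0.79, adjusted p = 0.247) and 0.33 (interval -0.19 to 0.84, adjusted p = 0.398) did not pass. Without siPrdx2 replicate 1 MT1X was at 0.50, and without siPrdx2 replicate 2 at 0.13.

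MT1E, the leading metallothionein of HT29, showed overlapping groups in SW480. It had 278 and 367 counts in the control libraries and 370 and 382 in the siPrdx2 libraries (32.1 and 39.2 against 38.0 and 38.6 CPM), a log2 fold change of 0.10 with an interval of -0.21 to 0.42 (adjusted p = 0.678). Its sign turned without siCon replicate 1 (-0.03, adjusted p = 0.845). MTF1 had 298 and 378 and then 327 and 324 counts (34.5 and 40.4 against 33.6 and 32.7 CPM), which overlapped in TPM but not in CPM, where both siPrdx2 libraries were lower. Its log2 fold change was -0.17 (interval -0.48 to 0.13, adjusted p = 0.450). SLC30A1 had 194 and 208 counts in the control libraries (22.4 and 22.2 CPM) and 262 and 294 in the siPrdx2 libraries (26.9 and 29.7 CPM), without overlap and with close control duplicates. Its log2 fold change was 0.34 (SE 0.14, interval 0.02 to 0.66) with an adjusted p of 0.180.

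Of the 6 members tested in SW480, 0 were called by edgeR, by DESeq2 or by limma on log2(TPM + 1). These called 3.3%, 4.86% and 1.52% of all 14112 genes tested, in turn. An unadjusted p under 0.05 with edgeR was reached by 2 members (MT2A and SLC30A1), and by 24.4% of all genes. DESeq2 gave no adjusted p for MT1X and 0.0504 for MT2A. Of the 6 fold changes, 5 were above 0, with a median of 0.34 against 0.002 for all genes. In 4 of the 6 both siPrdx2 libraries lay above both control libraries, which 29.6% of all genes tested did. The metallothionein sum went from 130.2 and 164 CPM to 180.1 and 200.03 CPM, a log2 fold change of 0.37 (SE 0.13, interval 0.06 to 0.67, adjusted p = 0.144).

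The uncertain part of the SW480 result was the pair of control libraries. MT2A has a transcript GC content of 53.9%, above that of 66.1% of the genes tested in SW480, and its value was the lower in siCon replicate 1. SLC30A1 has a GC content of 40.7%, above that of 19.6% of the genes, and its control libraries were alike. MT1E (53.2%) and MTF1 (46.6%) were also lower in siCon replicate 1, at 32.1 against 39.2 CPM and 34.5 against 40.4 CPM. MT1F, at 58.2%, had nearly equal control libraries (7.05 and 7.37 CPM). MT1X, at 53.7%, was higher in siCon replicate 1 (5.66 against 4.91 CPM). The part of GC content in these values was not tested. With a correction of each library for transcript GC content, MT2A was at a log2 fold change of 0.41 (adjusted p = 0.0162) and SLC30A1 at 0.51 (adjusted p = 0.0134), so that 2 members were called. Under this correction 17.5% of all genes were called, against 3.3% without it. Without siCon replicate 1 MT2A was at 0.30 (adjusted p = 1.83e-05), and without siCon replicate 2 it was at 0.72 (adjusted p = 3.29e-16). Without siPrdx2 replicate 1 or 2 it was at 0.58 and 0.40, with adjusted p-values of 0.445 and 0.798. When a group is left with 1 library, that library is assumed to vary like the other group, so that the p-values without a control library rest on the close siPrdx2 duplicates. SLC30A1 lay at 0.35 and 0.33 without either control library (adjusted p = 0.0335 and 0.0286), and its value thus hung less on the choice between them. MTF1 was called lower without siCon replicate 1 (-0.28, adjusted p = 0.0274) and was at -0.06 without siCon replicate 2, while MT1E was called higher without siCon replicate 2 (0.25, adjusted p = 0.0423). MT1F was at 0.34 and 0.40, and MT1X at 0.43 and 0.22, without siCon replicate 1 and 2 in turn, and neither was called. Of all genes, 24.6% were called without siCon replicate 1 and 52.8% without siCon replicate 2, so that calls under these choices were common. The plot of processing choices sets these values side by side for MT2A and SLC30A1.

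**Figure D3:**
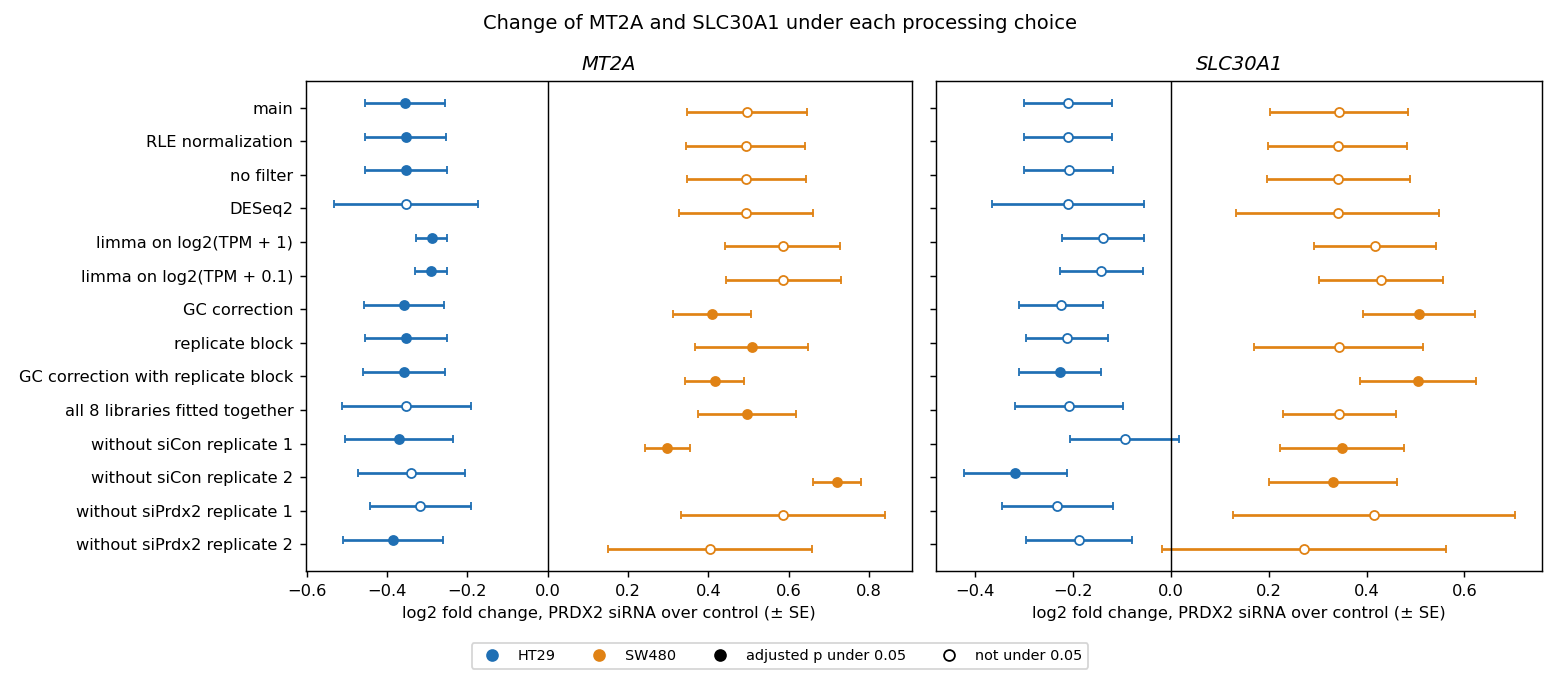
Log2 fold change (horizontal axis, PRDX2 siRNA over control siRNA, bars ± SE) of MT2A and SLC30A1 under each processing choice (rows); filled points have an adjusted p under 0.05. MT2A keeps its sign in each line under every choice shown, from -0.39 to -0.29 in HT29 and from 0.30 to 0.72 in SW480.

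The lines were then compared directly, by testing in all 8 libraries whether the effect of PRDX2 siRNA differed between them. For MT2A the effect in SW480 exceeded that in HT29 by 0.85 on the log2 scale (SE 0.20, 95% interval 0.40 to 1.29), with an adjusted p of 0.0710. SLC30A1, the exporter, showed the same order, with a difference of 0.55 (SE 0.16, interval 0.20 to 0.91, adjusted p = 0.115). MT1F differed by 0.98 (interval 0.03 to 1.93, adjusted p = 0.250; 0.51 without HT29 siPrdx2 replicate 1 and 1.60 without HT29 siPrdx2 replicate 2), MT1E by 0.39 (interval 0.05 to 0.73, adjusted p = 0.206) and MT1X by 0.63 (interval -0.44 to 1.70, adjusted p = 0.525). MTF1 differed by -0.10 (interval -0.42 to 0.23, adjusted p = 0.763), and this difference turned its sign with the GC correction (0.01). The metallothionein sum differed by 0.68 (SE 0.15, interval 0.35 to 1.02, adjusted p = 0.0612). Without SW480 siCon replicate 1 and 2 in turn, the difference was 0.65 and 1.09 for MT2A and 0.56 and 0.56 for SLC30A1. It was 0.95 and 1.02 for MT1F, 0.26 and 0.55 for MT1E, 0.73 and 0.54 for MT1X, and -0.21 and 0.03 for MTF1.

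Of the 6 members tested, 0 differed between the lines at the adjusted threshold with edgeR, where 1.12% of all 14772 genes tested did. An unadjusted p under 0.05 was reached by 4 members (MT2A, SLC30A1, MT1E and MT1F), and by 19.2% of all genes. DESeq2, which gave no adjusted p for MT1F and MT1X, called 1 member, MT2A (adjusted p = 0.0105), and so did edgeR without the filter on low counts (0.0425). These choices called 2.11% and 1.37% of all genes. With the GC correction MT2A (0.77, adjusted p = 0.0111) and SLC30A1 (0.73, adjusted p = 0.00832) were called, with 6.86% of all genes. The knockdown itself differed in size between the lines, by -0.84 (adjusted p = 0.0128) for PRDX2. Its part in the differences between lines was not tested. The plot of changes places both lines on 1 axis.

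**Figure D4:**
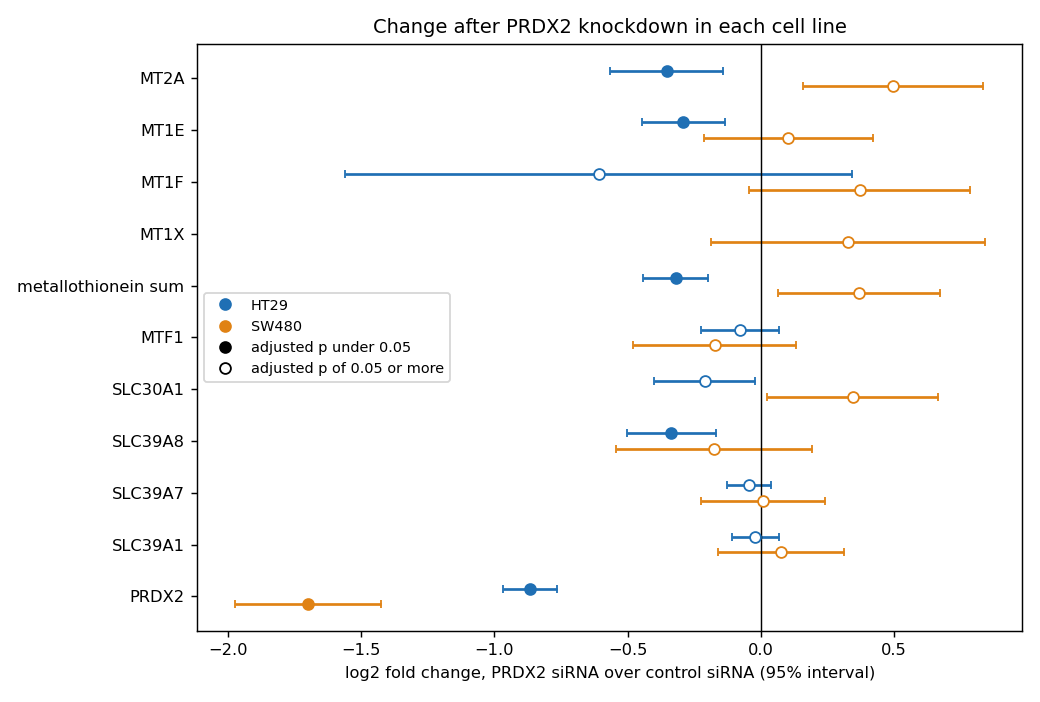
Log2 fold change (horizontal axis, PRDX2 siRNA over control siRNA, bars: 95% interval) of the members tested, the metallothionein sum, 3 zinc importers and PRDX2 in HT29 and SW480; filled points have an adjusted p under 0.05. MT2A, MT1F and SLC30A1 lie below 0 in HT29 and above 0 in SW480, while MTF1 is at -0.08 and -0.17.

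The wider zinc pathway was read from 33 further genes, of which 32 have a row in the files, namely other metallothionein genes and pseudogenes, the ZnT exporters and the ZIP importers. In HT29, 17 of them were tested, 0 were called higher and 1 was called lower. Of all genes tested in HT29, 17.6% were called and 9.82% were called lower. The further gene called lower was SLC39A8 (ZIP8), which brings zinc, manganese and iron into cells. It was at 28.4 and 26.3 TPM in the control libraries and at 23.3 and 22.5 TPM in the siPrdx2 libraries, a log2 fold change of -0.34 (SE 0.08, adjusted p = 0.00685). The call was lost with DESeq2 (adjusted p = 0.144), with limma on log2(TPM + 1) (0.0670), with all 8 libraries fitted together (0.392) and without siCon replicate 1 (0.0630). In SW480 the SLC39A8 control libraries lay at 69.6 and 46.8 TPM and enclosed the siPrdx2 libraries at 55.5 and 51.1 TPM, so that its fold change of -0.18 (adjusted p = 0.528) turned to 0.09 without siCon replicate 1.

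The importers with the highest level did not pass the test in either line. SLC39A7 (ZIP7), which releases zinc from the endoplasmic reticulum, was at 257 and 244 TPM and then 247 and 260.2 TPM in HT29, and at 148 and 151 TPM and then 158 and 159 TPM in SW480. Its log2 fold changes were -0.04 (interval -0.13 to 0.04) in HT29 and 0.01 (interval -0.22 to 0.24) in SW480 (adjusted p = 0.487 and 0.971). SLC39A1 (ZIP1), an importer of the plasma membrane, was at -0.02 (interval -0.11 to 0.07, adjusted p = 0.793) in HT29 and at 0.07 (interval -0.16 to 0.31, adjusted p = 0.686) in SW480.

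Of all genes tested in SW480, edgeR called 3.3%, and 24.4% had an unadjusted p under 0.05. Of the further genes, 20 were tested there with edgeR and 0 were called in either direction, with 4 at an unadjusted p under 0.05. These were SLC39A3 (0.52), SLC39A13 (0.46), SLC30A3 (0.53) and SLC39A10 (-0.29), named here after their values were seen, with adjusted p-values of 0.0822, 0.0762, 0.182 and 0.184. Without siCon replicate 1 and 2 in turn they were at 0.39 and 0.66, 0.37 and 0.54, 0.28 and 0.84, and -0.21 and -0.38. The median log2 fold change of the 20 genes was -0.003, against 0.34 for the members. The other metallothioneins with enough counts in SW480, also named after their values were seen, were MT1A, at 25.5 and 31.2 TPM and then 29.2 and 30.1 TPM, and MT3, at 13.0 and 14.0 TPM and then 9.45 and 15.1 TPM. Both had overlapping groups and fold changes of -0.02 (interval -0.56 to 0.53) and -0.22 (interval -0.92 to 0.47), and neither passed (adjusted p = 0.97 and 0.68). MT1A was at -0.17 and 0.15 without siCon replicate 1 and 2 in turn, and MT3 turned to 0.07 without siPrdx2 replicate 1. Between the lines, 0 of 21 further genes differed in their effect with edgeR, with 2 at an unadjusted p under 0.05 (SLC39A3 and SLC39A13). Of all genes, 1.12% differed and 19.2% had an unadjusted p under 0.05. Under control siRNA 9 of the 21 were higher and 6 lower in SW480, where 67.5% of all genes tested were called in either direction.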

How the data were processed

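Messenger RNA of 8 libraries was sequenced after TruSeq library preparation. The methods, written for the HT29 libraries, give paired-end reads aligned to hg19 with MapSplice and quantified on refGene mRNAs with RSEM, and the labels name hg19, FastQC and DESeq2. For each library the authors deposited the expected count that RSEM estimates for each of 25192 gene symbols, in which reads that fit several genes are divided between them. The authors also deposited TPM values, scaled for transcript length and to a common total, and FPKM values, not tested here. Of the genes above 0, 94.8% to 95.3% in each library had whole expected counts at the 2 decimals deposited, as did all 120 metallothionein values, zeros included.

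Expected counts were rounded and tested with edgeR 4.0.16 (quasi-likelihood test, TMM, Benjamini-Hochberg over all genes, threshold 0.05) wherever 2 or more libraries of the fit reached 10 counts. The lines were fitted apart. Their difference in effect was an interaction in all 8 libraries, and the control libraries were compared in a fit of their own. SE is the log2 fold change divided by the root of its F. Alternatives were RLE normalization, no filter, DESeq2 1.42.0, limma 3.58.1 on log2-transformed TPM with a pseudocount of 1 or 0.1, all 8 libraries together, a GC offset (loess, span 0.5), a replicate block with and without it, and leaving out each library. The edgeR tests were run first on simulated counts with the same spread in every library. That setting does not cover the unequal spread of the SW480 control duplicates. GC content from GENCODE was matched for 82.3% of symbols, 88.1% of those tested in HT29 and 88.0% in SW480.

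The members and lists were chosen with earlier results of these data known. Genes were named by a rule: the members, PRDX2, the zinc pathway genes past the threshold in either line and the 2 others with the highest TPM, and the 3 genes whose CPM most resembled the metallothionein sum. Same-numbered libraries deviated together by a correlation of 0.10 in HT29 and 0.11 in SW480, with 2 pairs each, too few to call them paired.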

Additional observations from a re-analysis of the deposited data

Results flagged for a closer look

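For 4 members, each HT29 library with PRDX2 siRNA lay below each HT29 control library and each SW480 library with PRDX2 siRNA lay above each SW480 control library, that is, the lines moved in opposite directions. The difference of the effects (SW480 minus HT29, log2) was 0.85 for MT2A, 0.98 for MT1F, 0.63 for MT1X and 0.55 for SLC30A1. Tested as an interaction in all 8 libraries with edgeR, the adjusted p-values were 0.0710, 0.250, 0.525 and 0.115, so that none of the 4 passed at the threshold of 0.05. The same pattern in CPM was found in 5.58% of the 14772 genes tested for the difference. MT1F and MT1X had 14 counts or fewer in each HT29 library.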

How the results depend on the processing

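In HT29, the 2 members called became 0 with DESeq2 and 0 with all 8 libraries together. Calls over all genes in HT29 fell there from 17.6% to 6.72% and 1.25%. The HT29 count also fell in some fits with a library left out. In SW480, the 0 members called became 2 with the GC correction, 1 with all 8 libraries together and 0 to 3 when a library was left out. With a replicate block the count was 1 (MT2A, 0.51, adjusted p = 0.00615), and 2 with the block and GC correction, where 22.4% of all genes were called. Members whose effect differed between lines went from 0 to 1 with no filter, DESeq2 or the block, and to 2 with the GC correction, alone or with the block. Calls over all genes in this test went from 1.12% to 1.37%, 2.11%, 1.33%, 6.86% and 6.52% in turn. This count of members also rose without either SW480 siCon library, where calls over all genes rose too. Under control siRNA the 5 members became 6 with no filter or the GC correction, and 4 with limma at either pseudocount. Calls over all genes were then 53.8%, 79.4%, 65.8% and 64.4%, against 67.5% in the main fit. Some fits with a library left out called fewer members. Calls over all genes rose too in SW480 and in the test between lines. In SW480 they went from 3.3% to 17.5% with the GC correction, 16.3% with all 8 libraries together, 12.2% with the block, and 24.6% and 52.8% without siCon replicate 1 and 2, where 3 members were called.

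The metallothionein sum in HT29 lost its call with all 8 libraries together (-0.32, adjusted p = 0.247). In SW480, with every library kept, it gained one with the GC correction (0.28, adjusted p = 0.0405), with the block and GC correction (0.28) and with all 8 libraries together (0.37). With the metallothionein rows kept apart, these choices called 17.5%, 22.4% and 16.3% of all genes, against 3.3% in the main fit. The sum in SW480 ranged from 0.21 to 0.54 with a library left out. With every library kept, the sum's difference between lines passed with no filter (0.68), DESeq2 (0.69), GC correction (0.61), the replicate block (0.69) and both (0.62). The shares of all genes called there are given above. This difference ranged from 0.53 to 0.87 with a library left out. The sign turned for MT1E in SW480 (-0.03 to 0.25 with a library left out), SLC39A8 in SW480 (-0.41 to 0.09) and the MTF1 difference between lines (0.01 with the GC correction, 0.02 with the block added, -0.21 to 0.03 with a library left out). The causes were not tested. Of 443 values over 34 results under these choices, these were the 5 sign changes. MT1A and MT3 in SW480, whose signs also turned with a library left out, were not among these results.

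Over all genes, HT29 gave 1006 higher and 1273 lower with edgeR, 315 and 556 with DESeq2, 1252 and 548 with limma on log2(TPM + 1), and 86 and 99 with all 8 libraries together. SW480 gave 172 and 294, then 243 and 443, 126 and 88, and 1075 and 1340, with 1080 and 1091 under the GC correction and 858 and 869 under the block. With limma on log2(TPM + 1), the median of all genes between lines under control siRNA was 0.15, against 0.045 with edgeR. Counts of 14 or fewer in HT29 limit MT1F, MT1G and MT1X.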

Other observations

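Over the 8 libraries, with log2 CPM centred within each line, the 3 genes outside the set whose pattern most resembled the metallothionein sum were SUN2 (Pearson's r 0.991), MAP2K2 (0.991) and PHLDA3 (0.989), of 10283 genes with a mean of at least 5 CPM in each line. SUN2, a nuclear envelope protein gene, read 108 CPM in both HT29 controls and 87.2 and 88.1 CPM after PRDX2 siRNA, and at 67.4 and 90.0 CPM and then 92.5 and 104 CPM in SW480. The kinase gene MAP2K2 went from 80.1 and 83.0 CPM to 68.9 and 71.3 CPM in HT29 and from 68.1 and 80.6 CPM to 83.3 and 90.4 CPM in SW480. PHLDA3 was at 15.8 and 15.5 CPM and then 11.2 and 12.1 CPM in HT29, and at 35.3 and 49.4 CPM and then 59.5 and 64.2 CPM in SW480. All 3 shared with MT2A the lower value in SW480 siCon replicate 1. Their transcript GC content was 58.5%, 60.0% and 59.0%, against a median of 48.6% over the genes tested in SW480, and the part of GC content in the likeness was not tested. Among the members, SLC30A1 stood at r 0.81 (rank 840) and MTF1 at r -0.03. These values describe 8 libraries that share lines and control groups, and genes were picked as the most alike of many.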
